A study of Mus musculus with 32 samples.

Results

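Transcripts of 7 mouse genes are described here in blood stem and progenitor cells: the Id genes Id1, Id2 and Id3, the E protein genes Tcf3, Tcf4 and Tcf12, and Hes1. They were taken by name from 41388 genes counted in each of 24 RNA-seq libraries, and the 2 cohorts of libraries were treated apart. All mice were C57BL/6. Haematopoietic stem cells (HSC) had been sorted as Lin-, cKit+, Sca1+, CD150+, CD48- cells, and multipotent progenitors (MPP) by the same gate without CD150. The Vav cohort, from mice of 8 weeks carrying Vav-CRE, which is active in blood cells, held 3 libraries each of Control (labelled wild-type) HSC, Control MPP, Jarid2KO HSC and Jarid2KO MPP. The Mx1 cohort came from mice of 10 weeks, 2 months after the interferon inducer pIpC, with Mx1-CRE, an interferon-inducible driver that is not restricted to blood. It held 2 libraries each of Control (labelled wild-type), Jak2V617F, and Jak2V617F - Jarid2KO (here the double mutant), as HSC and as MPP, and pIpC was common to all 6 groups. Each library came from pooled mice of both sexes, so p-values measure the spread between such pools. Jarid2 helps to recruit Polycomb repressive complex 2, which methylates histone H3 at silent genes, and Jak2V617F is an activating form of the kinase behind many cytokine receptors.

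E proteins are basic helix-loop-helix transcription factors that bind E-boxes as dimers and, in blood, open the lymphoid programme. Id proteins have the helix-loop-helix but lack the basic region, so an E protein paired with one cannot bind DNA; the ratio between both families is known to weigh on lymphoid and myeloid fate and on stem cell quiescence. Hes1 is a basic helix-loop-helix repressor, best known as a target of Notch signalling. The symbols Tcf3 and Tcf4 stand here for E protein genes and not for the Wnt-pathway factors Tcf7l1 and Tcf7l2, for which the same names have been used.

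On build mm10, Id1 (ENSMUSG00000042745) lies on chromosome 2 at 152736251-152737410, Id2 (ENSMUSG00000020644) on chromosome 12 at 25093801-25096092 and Id3 (ENSMUSG00000007872) on chromosome 4 at 136143497-136145755. Tcf3 (ENSMUSG00000020167) lies on chromosome 10 at 80409514-80433647, Tcf12 (ENSMUSG00000032228) on chromosome 9 at 71842688-72111871 and Hes1 (ENSMUSG00000022528) on chromosome 16 at 30064384-30067796. RefSeq start regions (build GRCm38.p6, 250 bases before to 50 after the start) matched 4 of the 7 genes (Id2, Id3, Tcf3 and Tcf12) and not Id1, Tcf4 or Hes1. The 250 bases before the start are shown for Id2 and Tcf3, because both stood higher without overlap in Jarid2KO MPP of the Vav cohort. Both are on the minus strand, at chr12:25096093-25096342 and chr10:80433636-80433885, and the capitals mark the E-box (CANNTG), the motif of E proteins.
Id2: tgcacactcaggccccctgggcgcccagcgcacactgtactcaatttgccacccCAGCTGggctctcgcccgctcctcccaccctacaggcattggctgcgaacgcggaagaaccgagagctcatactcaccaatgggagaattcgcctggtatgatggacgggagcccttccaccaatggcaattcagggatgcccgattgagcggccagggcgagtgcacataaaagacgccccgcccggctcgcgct
Tcf3: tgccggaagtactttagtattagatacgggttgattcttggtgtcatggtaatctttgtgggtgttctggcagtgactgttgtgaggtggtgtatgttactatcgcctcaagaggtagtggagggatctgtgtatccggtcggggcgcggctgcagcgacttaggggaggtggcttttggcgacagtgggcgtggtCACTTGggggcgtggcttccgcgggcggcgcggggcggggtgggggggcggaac
Each holds 1 E-box, with its first base at position -196 for Id2 and -54 for Tcf3, and the Id3 window holds 0. Over the full 300 bases of their start regions the counts of these 3 genes are unchanged. An E-box occurs in 72.3% of 32851 such 300-base regions, so a match is no mark of these genes. It reads the same on either strand at its fixed letters.

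The libraries held 10473535 to 27232379 counts in the Vav cohort, and 7852483 to 20724168 in the Mx1 cohort. Levels are given as CPM (counts scaled to the library total) and, between genes, as RPKM (CPM per kilobase of listed exon). Jarid2 itself stood at 77.6 to 144 CPM over all Vav libraries, with overlapping groups, and at 45.6 to 169 in the Mx1 cohort; these counts add up all exons and do not check the genotype. Vav libraries carried the stem cell markers of their gate: the summed level of 8 HSC markers was 2718 to 4362 CPM. In the Mx1 cohort the double mutant libraries held 856 to 3320 CPM of the same list, and the 8 Control and Jak2V617F libraries held 325 to 686. Procr, a defining HSC receptor, stood at 90.8 to 145 CPM in Vav, 24.8 to 74.4 in double mutant and 0.0653 to 8.89 in Mx1 Control and Jak2V617F libraries. Those 8 libraries held 18510 to 78134 CPM of 10 granulocyte markers, against 2648 to 6482 in the double mutant and 1024 to 22716 in Vav. The Mx1 libraries labelled Control and Jak2V617F thus held a lower sum of these HSC markers, and less Procr, than any Vav library. Slamf1, which encodes CD150, stood at 57.4 to 95.5 CPM in Vav HSC, 2.19 to 14.1 in Vav MPP and 0.196 to 12.7 in those 8 libraries, a range that overlaps Vav MPP. Cd48, whose product the gate excludes, stood at 6.46 to 50.7 CPM in Vav, 13.9 to 55.5 in double mutant and 37.4 to 133 in those 8 libraries. Of the latter, Control HSC held 122 to 133 CPM and Jak2V617F HSC 93.7 to 123. In 6 Mx1 libraries (Control MPP 2, Jak2V617F HSC 2, both Jak2V617F MPP, double mutant HSC 1 and double mutant MPP 1) 6.09% to 9.31% of counts fell in 20 heart muscle genes, against 0.525% to 1.22% in the other 6 and at most 0.00293% in Vav. One Mx1 genotype is named differently in the series' design text (loss of Jarid2 by itself) and on the samples (Jak2V617F), and groups here are those on the samples.

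In the Vav cohort the families differed in level before they differed between genotypes. Per length, Id2, which is needed to form natural killer and innate lymphoid cells, was the highest of the 7 genes in each of the 12 Vav libraries, at 27.3 to 75.2 RPKM. Tcf4 (ENSMUSG00000053477, chromosome 18 at 69344146-69687967), the E protein of plasmacytoid dendritic cells, came next at 14.4 to 22.3 RPKM in 11 Vav libraries; in Jarid2KO MPP 1 it stood at 11.0, under Tcf3 at 15.2. Tcf12, which works with Tcf3 in thymocytes, lay between 2.45 and 5.97 RPKM, and Tcf3, required for B cell commitment, between 2.29 and 15.2. Id1, Id3 and Hes1 were scarce, with 8 to 240, 7 to 140 and 3 to 57 counts per Vav library. Listed lengths add up all exons, so long genes such as Tcf4 (12250 bases) and Tcf12 (15529 bases) read lower per length than any single transcript of theirs would.

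**Figure D1:**
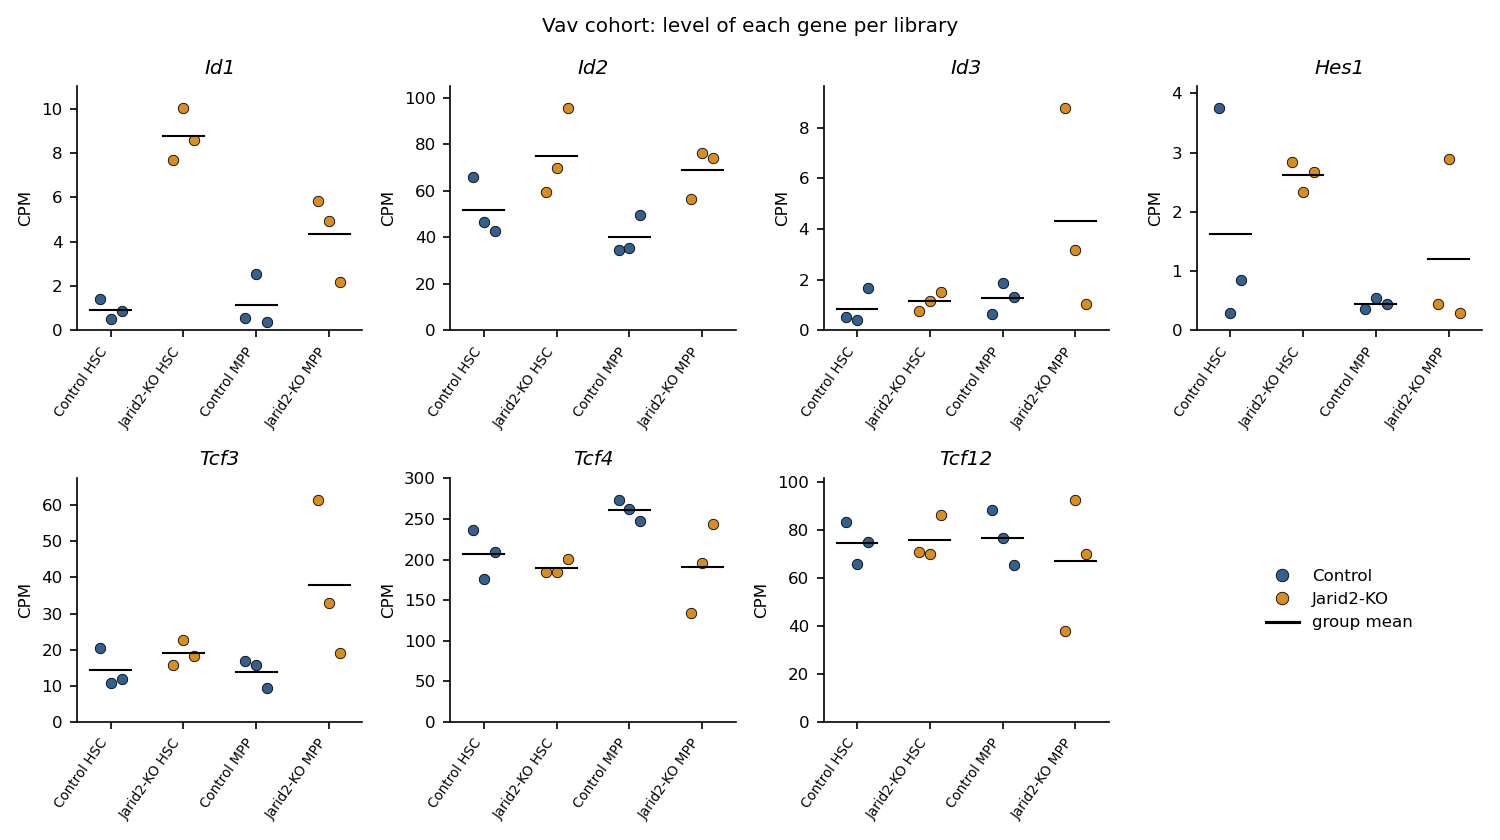
CPM of each gene (one panel each, linear axis from 0) in the 12 Vav libraries, by genotype and cell type; points are libraries and lines are group means of 3. Id1 is the panel in which the 3 Jarid2KO HSC libraries (7.67 to 10.0 CPM) stand wholly above all Control libraries (0.353 to 2.53 CPM).

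The first comparison asks what loss of Jarid2 does to these genes in HSC. Id1, a target of BMP and cytokine signals that is studied as a regulator of stem cell self-renewal, rose, and it was the 1 member of 7 to pass the test, against 0.569% of the 15818 genes tested (0.253% higher, 0.316% lower; 17% had an unadjusted p under 0.05). It stood at 1.4, 0.524 and 0.881 CPM in the Control HSC libraries and at 7.67, 10.0 and 8.61 CPM in the Jarid2KO HSC libraries, or 19, 9 and 24 counts against 154, 240 and 155. All 3 Jarid2KO values lay above all 3 Control values, as did those of 16.2% of tested genes. The group means were 0.934 ± 0.439 and 8.77 ± 1.19 CPM (SD, n = 3 each), and the log2 fold change was 3.18 (SE 0.65, adjusted p = 0.0442). The call rests on all libraries together: without any one of the 6, the log2 change was 2.94 to 3.57 and the adjusted p 0.0721 to 0.218. Granulocyte markers also stood higher, with a positive log2 change for 10 of 10 (median 1.25, 0 passed) and sums of 1024 to 3427 CPM in Control and 2921 to 8465 in Jarid2KO HSC. Immediate early genes, which respond to handling, were positive for 9 of 9 tested (median 0.72, 0 passed). Of 9 macrophage and dendritic cell markers tested, 6 were positive (median 0.74), and 2 passed, both lower: the MHC class II genes Cd74 (-1.32, SE 0.22, adjusted p = 0.0193) and H2-Aa (-1.36, SE 0.22, adjusted p = 0.0193). The sum of that list was 483 to 503 CPM in Control and 195 to 281 in Jarid2KO HSC, without overlap. The part of these other transcripts in the Id1 result was not tested. The exact Poisson intervals of the Id1 counts (95%, counting error only) did not meet either, the highest Control bound being 2.18 CPM and the lowest Jarid2KO bound 6.51.

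The other Id genes did not pass in HSC. Id2 stood at 66.1, 46.6 and 42.8 CPM in Control HSC and at 59.6, 69.7 and 95.5 in Jarid2KO HSC (log2 0.46, SE 0.25, adjusted p = 0.357), and the ranges overlapped. Id3, induced by BMP and by antigen receptor signals, was at 0.514, 0.407 and 1.65 CPM and at 0.747, 1.17 and 1.5 CPM (log2 0.32, SE 0.74, adjusted p = 0.858), a level at which 7 to 45 counts leave wide error.

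None of the E proteins passed in HSC, and all 3 had overlapping ranges. Tcf3 was at 20.4, 10.8 and 11.8 CPM in Control and 15.8, 22.7 and 18.3 CPM in Jarid2KO HSC (log2 0.34, SE 0.39, adjusted p = 0.678). Tcf4 was at 237, 176 and 210 CPM and at 185, 185 and 201 CPM (log2 -0.19, SE 0.20, adjusted p = 0.647). Tcf12 was at 83.6, 66.1 and 74.9 CPM and at 70.8, 70.2 and 86.5 CPM (log2 -0.05, SE 0.25, adjusted p = 0.935), the smallest difference of the 7. Hes1 spread over a wide range in Control HSC, at 3.75, 0.291 and 0.845 CPM, and over a narrow one in Jarid2KO HSC, at 2.84, 2.34 and 2.67 CPM (log2 0.65, SE 0.83, adjusted p = 0.719). Control HSC 1 alone placed the Control range across the Jarid2KO one, and without that library the Hes1 log2 change was 2.13 with an adjusted p of 0.241.

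In MPP, no member passed, against 0.948% of the tested genes (150 of 15818) in either direction, 0.512% higher and 0.436% lower, although Id1, Id2, Id3, Tcf3 and Hes1 had higher means in Jarid2KO. At an unadjusted p under 0.05 stood 5 members (Id1, Id2, Id3, Tcf3 and Tcf4), against 19.3% of tested genes, and DESeq2 called 2 (Id1 and Tcf3), where it called 1121 genes or 6.98% of those it tested. Id1 was at 0.544, 2.53 and 0.353 CPM in Control MPP and at 5.83, 4.96 and 2.20 CPM in Jarid2KO MPP (log2 1.96, SE 0.62, adjusted p = 0.120). Its ranges overlapped through Control MPP 2 and Jarid2KO MPP 3, and without Control MPP 2 it passed (log2 3.25, adjusted p = 0.0396), as it did without Jarid2KO MPP 3 (2.26, adjusted p = 0.0416). The first of these fits called 0.339% of tested genes and the second 9.03%. Id2 was at 34.6, 35.5 and 49.8 CPM and at 56.7, 76.3 and 74.2 CPM (log2 0.78, SE 0.25, adjusted p = 0.122), with no overlap between the groups. Id3 was at 0.634, 1.88 and 1.32 CPM and at 8.77, 3.17 and 1.05 CPM (log2 1.78, SE 0.73, adjusted p = 0.201), so 2 of the 3 Jarid2KO libraries were above all Control libraries and the third was not.

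Among the E proteins, Tcf3 and Tcf4 had opposite signs in MPP. Tcf3 was at 16.9, 15.7 and 9.26 CPM in Control MPP and at 61.5, 32.9 and 19.2 CPM in Jarid2KO MPP (log2 1.47, SE 0.39, adjusted p = 0.0870). Tcf4 was at 274, 262 and 248 CPM and at 134, 196 and 244 CPM (log2 -0.45, SE 0.20, adjusted p = 0.235). For Tcf3 every Jarid2KO library was above, and for Tcf4 every one was below, all Control libraries. With Id2 these make 3 of 7 members without overlap, where 21.7% of tested genes had none (9.07% higher and 12.6% lower). Tcf12 was at 88.3, 76.7 and 65.6 CPM and at 38.1, 92.8 and 70.3 CPM (log2 -0.20, SE 0.25, adjusted p = 0.697), and Hes1 at 0.363, 0.546 and 0.441 CPM and at 0.439, 2.90 and 0.286 CPM (log2 1.42, SE 0.89, adjusted p = 0.405), 1 library of 3 being high.

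The library Jarid2KO MPP 1 holds the highest Tcf3 and Id3 and the lowest Tcf4 and Tcf12 of the Vav cohort, and it stands apart in other transcripts. Its granulocyte markers summed to 22716 CPM, its 11 immediate early genes to 1554 CPM and its 12 endothelial and stromal markers to 636 CPM, where the other 11 Vav libraries held 1024 to 13223, 91.6 to 387 and 43.1 to 130 CPM. Without it, the MPP log2 changes were 0.89 for Tcf3 (adjusted p = 0.198), 0.71 for Id3 (0.641), -0.26 for Tcf4 (0.475) and 0.07 for Tcf12 (0.883), while Id1 stood at 1.67 (0.212) and Id2 at 0.88 (0.107). Without Jarid2KO MPP 3 in its place, Tcf3 (1.78, adjusted p = 0.0154) and Tcf4 (-0.68, adjusted p = 0.0406) passed, in a fit that called 1512 genes, or 9.03% of those tested. Over the whole MPP comparison, 10 of 10 granulocyte markers (median log2 1.23, 0 passed), 9 of 9 tested immediate early genes (2.62, 0 passed) and 9 of 10 tested endothelial and stromal markers (2.33, 2 passed) had positive changes. Of 9 macrophage and dendritic cell markers tested, 4 were positive (median -0.27), and 3 passed, all lower: the lysosomal Cd68 (-1.36, SE 0.23, adjusted p = 0.0126), Cd74 (-1.01, SE 0.22, adjusted p = 0.0447) and H2-Aa (-1.03, SE 0.21, adjusted p = 0.0376). The sum of that list was 528 to 757 CPM in Control and 303 to 339 in Jarid2KO MPP, without overlap, as for Tcf4. Siglech, its marker of plasmacytoid dendritic cells, did not pass the filter on low counts in Vav. The part of these other transcripts in the differences was not tested.

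**Figure D2:**
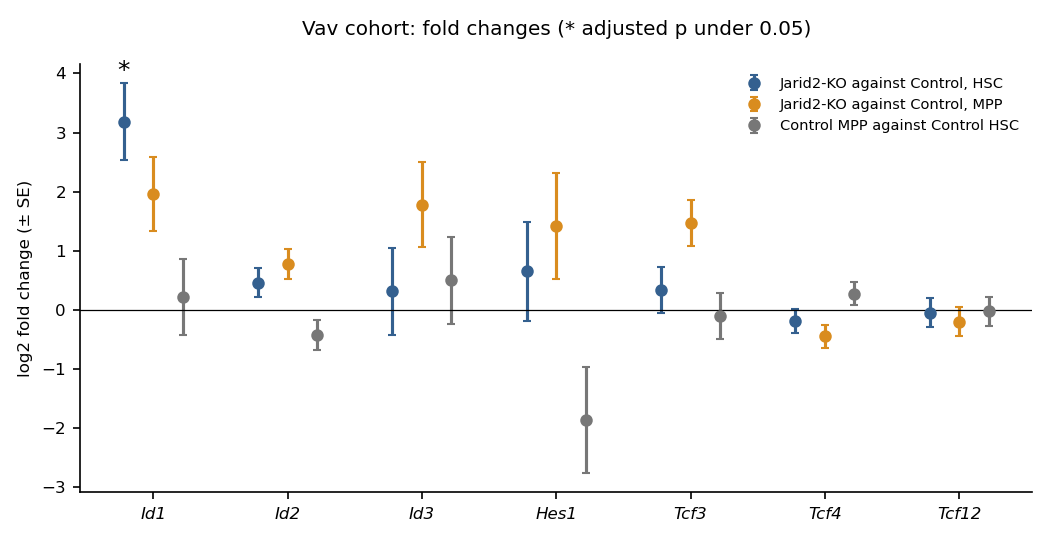
Log2 fold change with its SE for each gene in 3 Vav comparisons (edgeR, 3 libraries per group): Jarid2KO against Control in HSC, the same in MPP, and Control MPP against Control HSC. The star marks the 1 value that passed, Id1 in HSC (3.18, SE 0.65); E protein values stay within 0.5 of 0 on the log2 scale except Tcf3 in MPP (1.47).

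The Jarid2 effects in MPP and HSC were also compared directly. No gene of 15818 passed (0%; 419, or 2.65%, had an unadjusted p under 0.05, and DESeq2 called 7), and so none of the members, of which 0 had an unadjusted p under 0.05. The log2 difference, MPP effect minus HSC effect, was -1.22 (SE 0.87) for Id1, 0.32 (SE 0.35) for Id2, 1.46 (SE 1.03) for Id3, 1.12 (SE 0.55, unadjusted p = 0.0594) for Tcf3, -0.26 (SE 0.28) for Tcf4, -0.15 (SE 0.35) for Tcf12 and 0.76 (SE 1.21) for Hes1. The pass of Id1 in HSC and its miss in MPP are therefore not shown to differ.

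Between Control MPP and Control HSC no member passed, against 1.17% of tested genes (185 of 15818; 0.512% higher, 0.657% lower). By unadjusted p, 0 members and 8.44% of tested genes were under 0.05, and DESeq2 called 0 members, where it called 461 genes or 3.11%. Tcf4 was higher in all 3 Control MPP libraries (248 to 274 CPM) than in all Control HSC libraries (176 to 237 CPM), as 10.7% of tested genes were, with a log2 difference of 0.28 (SE 0.20, adjusted p = 0.899). Hes1 had the largest difference, lower in MPP by a log2 of -1.86 (SE 0.89, adjusted p = 0.615), of which Control HSC 1 carried most: without it the value was -0.39. Id2 (-0.43, SE 0.25, adjusted p = 0.776), Id1 (0.22, SE 0.64), Id3 (0.50, SE 0.73), Tcf3 (-0.11, SE 0.39) and Tcf12 (-0.02, SE 0.25) overlapped between the cell types.

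Ordered by group mean, Id1 ran from Jarid2KO HSC (8.77 CPM) through Jarid2KO MPP (4.33) and Control MPP (1.14) to Control HSC (0.934), and only the first step was free of overlap. The share of all tested genes free of overlap at that Id1 step was not counted. For Tcf4 the order was Control MPP (261 CPM), Control HSC (207), Jarid2KO MPP (191) and Jarid2KO HSC (190), again with only the first step free. That step was free in the same direction for 10.7% of tested genes. The groups of Id2, Id3, Tcf3, Tcf12 and Hes1 overlapped at each step of their order.

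The Id genes were also set against the E proteins in each library as the ratio of their summed RPKM, as a description with no test. In HSC the ratio was 1.80, 1.76 and 1.42 in Control and 2.29, 2.54 and 3.15 in Jarid2KO libraries. In MPP it was 0.872, 1.03 and 1.5 in Control and 1.90, 2.20 and 2.09 in Jarid2KO libraries. In both cell types every Jarid2KO library had a higher ratio than every Control library. The summed E protein level was 25.3 ± 4.24 RPKM in Control and 25.1 ± 1.48 in Jarid2KO HSC, and 29.7 ± 2.76 and 29.3 ± 0.741 in MPP (SD, n = 3 each), differences smaller than the spread between libraries. Per length, a count of Tcf3 (4039 bases) weighs more than one of Tcf4 (12250) or Tcf12 (15529). From CPM, not per length, the ratio was 0.153 to 0.200 in Control and 0.251 to 0.346 in Jarid2KO HSC. In MPP it was 0.0945 to 0.159 and 0.232 to 0.305. The summed Id level was 42.1 ± 9.98 against 67.2 ± 15 RPKM in HSC and 33.2 ± 6.32 against 60.5 ± 5.80 in MPP. Id2 made up 81.8% to 98.2% of the Id sum, so the ratio mostly follows a gene that did not pass the test by itself. Within the E protein sum, Tcf4 made up 59.8% to 75.7% in all Vav libraries except Jarid2KO MPP 1 (38.3%) and 2 (53.2%), in which Tcf3 was high.

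**Figure D3:**
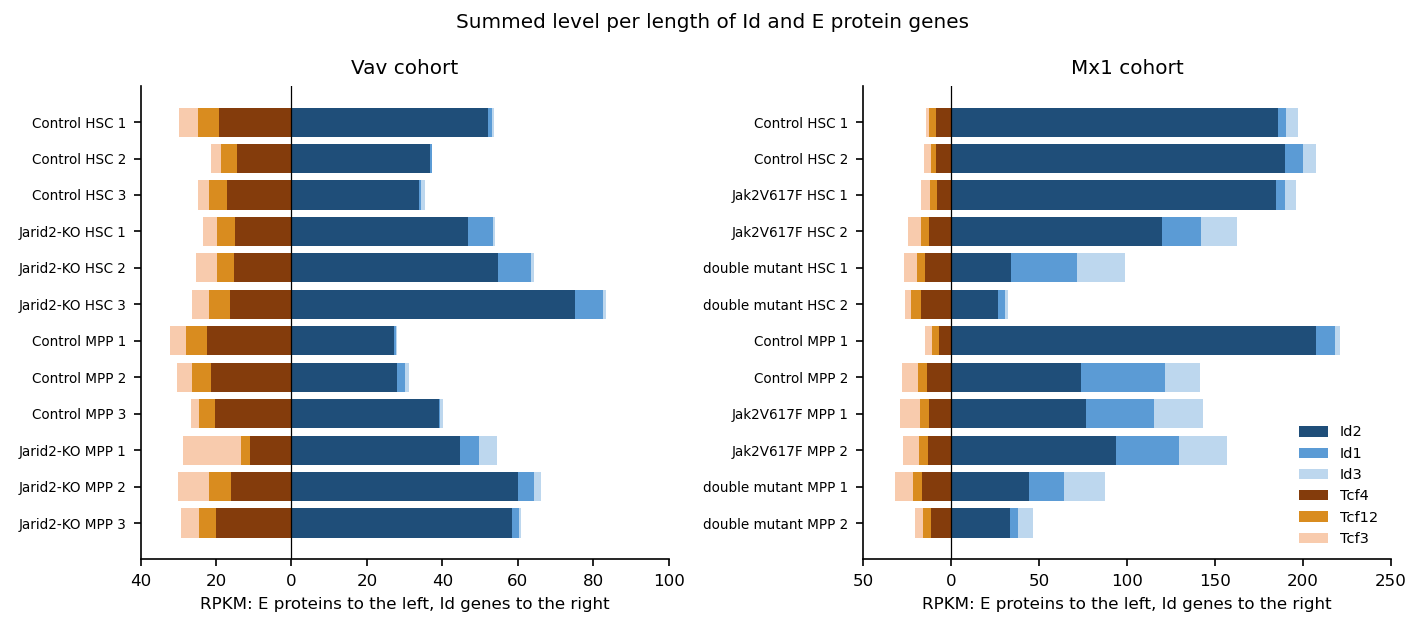
Summed RPKM of Id2, Id1 and Id3 (to the right of 0) and of Tcf4, Tcf12 and Tcf3 (to the left) in each library of the Vav cohort and of the Mx1 cohort, one bar per library. The 2 panels have different scales, and each library was scaled to its own total. In the Vav panel the E protein side stays between 21.3 and 32.2 RPKM while the Id side runs from 28.1 to 83.5.

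Genes around this system were counted from lists. Of 9 partners of E proteins, 7 were tested. Runx1t1, a corepressor of the ETO family, rose in Jarid2KO MPP (log2 1.87, SE 0.24, adjusted p = 0.00214) and was lower in Control MPP than in Control HSC (-2.54, SE 0.25, adjusted p = 9.3e-05); none passed in Jarid2KO HSC, and the stem cell partners Tal1, Lyl1, Lmo2, Ldb1 and Gata2 passed in none of these 3 comparisons. Of 19 lymphoid targets, 17 were tested. Dntt, the terminal transferase of early lymphoid cells, was higher in Control MPP than in Control HSC (2.81, SE 0.29, adjusted p = 0.000184) and fell in Jarid2KO MPP (-1.38, SE 0.28, adjusted p = 0.0318). Flt3, the receptor of lymphoid-primed progenitors, was higher in Control MPP than HSC (3.33, SE 0.38, adjusted p = 0.000419) and did not pass in Jarid2KO MPP (-1.27, SE 0.35, adjusted p = 0.0933). The list's median log2 was 0.58 in Jarid2KO HSC, 0.13 in Jarid2KO MPP and 1.05 in Control MPP against HSC, where all genes had -0.03, 0.02 and -0.02.

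Signalling pathways known to induce Id genes or Hes1 were counted next. Of 27 BMP and TGF-beta genes, the pathway that induces Id genes through Smad proteins, 21 were tested and 0 passed in any Vav comparison; the list's median was 0.23 in HSC and 0.27 in MPP on Jarid2 loss. The BMP receptor gene Bmpr1a stood at a log2 of 2.04 (SE 0.63, adjusted p = 0.155) in HSC and 2.09 (SE 0.63, adjusted p = 0.109) in MPP, short of the threshold in both. Of 27 Notch genes, 23 were tested, and 0 passed on Jarid2 loss in either cell type; the ligand Jag2 came nearest in MPP (2.20, SE 0.50, adjusted p = 0.0538). The ligand Jag1 was lower in Control MPP than HSC (-1.43, SE 0.32, adjusted p = 0.0478). Of 8 feedback genes of STAT5 and other JAK signals, which are outputs of that signalling, all were tested. In HSC and in MPP alike 2 of 8 passed, both higher, and 7 of 8 were positive, where 0.569% and 0.948% of all tested genes passed. The lists were chosen with earlier results of these data known, so these counts are a description. The part of any of these pathways in the Id and Hes1 levels was not tested. Cish, a STAT5-induced inhibitor of cytokine receptors, rose in Jarid2KO HSC (1.56, SE 0.25, adjusted p = 0.0193) and MPP (1.72, SE 0.25, adjusted p = 0.00522). The kinase gene Pim2 rose in HSC (2.10, SE 0.41, adjusted p = 0.0380) and the feedback inhibitor Socs2 in MPP (2.02, SE 0.24, adjusted p = 0.00144), where the medians of the list were 1.18 and 1.05. Socs2 was lower in Control MPP than HSC (-1.20, SE 0.24, adjusted p = 0.0227).

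Genes whose pattern over the 12 Vav libraries was most like that of each member were taken by Pearson r of log2 CPM among 10075 genes, as a description. The libraries differ in depth and fall into genotype and cell type groups, and the highest of so many r values are high by selection. Nearest to Id1 were Ndufb6 (r = 0.94), Porcn (0.94), the enzyme that lipidates Wnt ligands, and H1f0 (0.93), a linker histone, with r of 0.63, 0.13 and 0.38 over the 12 Mx1 libraries. Nearest to Id2 were Nefh (0.87), Gda (0.85), a guanine deaminase, and Bend3 (0.84), with -0.43, 0.75 and -0.48 in Mx1. Nearest to Id3 were Lrrc45 (0.95), Plbd1 (0.94) and Tsen15 (0.93), with -0.52, 0.27 and -0.43 in Mx1. Tcf3 ran closest to Rexo1 (0.98), Cdk9 (0.97), a transcription elongation kinase, and Gnb2 (0.97), of which only Gnb2 had a high r in Mx1 (0.87, against 0.13 and -0.67). Tcf4 ran closest to the integrin gene Itga2 (0.95), Celf2 (0.95) and Zfp800 (0.94), with -0.04, -0.69 and -0.66 in Mx1. Tcf12 ran closest to Pkn2 (0.97), Hook1 (0.96) and the chromatin remodeller Smarca5 (0.96), with 0.64, 0.13 and -0.10 in Mx1, and Hes1 to Prkrip1 (0.90), Slc19a2 (0.89), a thiamine transporter, and Slc35g1 (0.88), with -0.76, 0.29 and -0.24.

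In the Mx1 cohort no gene passed in any of the 7 comparisons (0% of 19616 each), and so no member did. An unadjusted p under 0.05 was held by 2.67% of genes in Control MPP against HSC, 1.52% and 1.35% in Jak2V617F against Control HSC and MPP, 1.52% in the difference of those effects, 4.68% and 3% in double mutant against Jak2V617F HSC and MPP, and 2.44% in that difference (264 to 919 genes). Among the members this was 1 value, Id2 in double mutant HSC. By DESeq2, 336 genes passed between double mutant and Jak2V617F HSC, with Id2 among them as the 1 member, 73 passed in the same contrast in MPP, and 0 to 15 in the other comparisons. DESeq2 filters genes by itself, so these counts are not shares of the 19616. Id2 stood at 236 and 241 CPM in Control HSC, 235 and 152 in Jak2V617F HSC and 43.4 and 34.0 in double mutant HSC. In MPP it stood at 264 and 93.9 CPM in Control, 97.5 and 119 in Jak2V617F and 56.2 and 42.7 in the double mutant. All 4 double mutant libraries were below all 8 others, as 1.35% of tested genes were. The log2 change from Jak2V617F to the double mutant was -2.57 in HSC (SE 0.63, unadjusted p = 0.00132, adjusted p = 0.223) and -1.20 in MPP (SE 0.61, adjusted p = 1.00), and the difference between both was 1.37 (SE 0.85, adjusted p = 1.00).

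Levels of Id2 fell into tiers that granulocyte markers and, in part, T and NK cell markers share. The 4 libraries with 57282 to 78134 CPM of those markers held 235 to 264 CPM of Id2, the 4 with 18510 to 33206 CPM held 93.9 to 152, and the 4 double mutant libraries, with 2648 to 6482 CPM, held 34.0 to 56.2. The first tier, all Control and Jak2V617F, had 0.604% to 1.22% of counts in heart muscle genes. The second, of the same genotypes, had 6.09% to 9.31%. Granulocyte and heart muscle content therefore cannot be told apart between those tiers. In the same 3 sets of libraries the 8 T and NK cell markers summed to 545 to 945, 163 to 345 and 68.9 to 174 CPM, of which the last 2 ranges overlapped. Within the double mutant, granulocyte sums of 2648, 3527, 4978 and 6482 CPM went with Id2 at 34.0, 56.2, 43.4 and 42.7 CPM, which is not the same order. The part of granulocyte, T and NK cell RNA in the Id2 difference was not tested, and in bulk RNA fewer cells of a type and less RNA per cell cannot be told apart. Over the Vav cohort, with 1024 to 22716 CPM of granulocyte markers, Id2 stood at 34.6 to 95.5 CPM, and the library with most of them, Jarid2KO MPP 1, had 56.7.

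**Figure D4:**
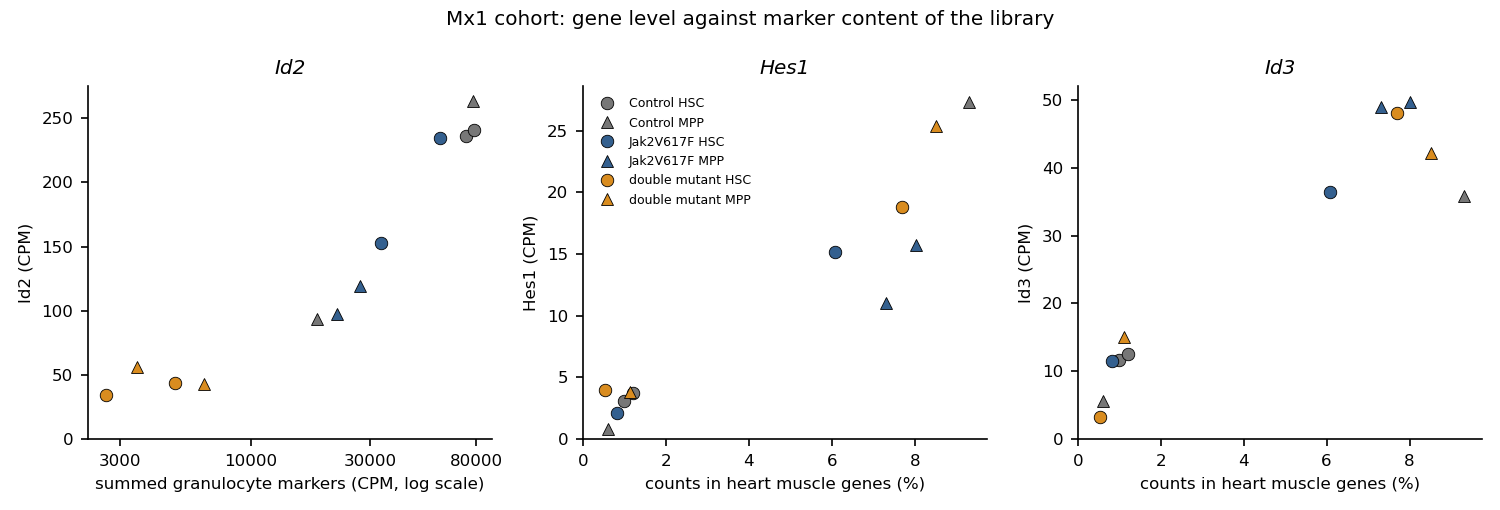
Levels of Id2 against the summed granulocyte markers of each Mx1 library (log axis), and of Hes1 and Id3 against the percentage of counts in heart muscle genes; points are the 12 libraries, coloured by genotype and shaped by cell type. Id2 lies at 34.0 to 56.2 CPM in the double mutant and 93.9 to 264 elsewhere, while Hes1 and Id3 split by heart muscle RNA and not by genotype.

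Id1, Id3, Hes1 and Tcf3 were split by the heart muscle content across all genotypes. In the 6 libraries with over 4% of counts in heart muscle genes, Id1 was at 22.9 to 55.1 CPM, Id3 at 35.8 to 49.8, Hes1 at 11.1 to 27.3 and Tcf3 at 30.8 to 45.6. In the other 6 they were at 4.32 to 12.2, 3.32 to 15, 0.820 to 3.99 and 6.73 to 20.4 CPM. These 4 of 7 members were higher without overlap, as were 16.5% of tested genes. The same 6 libraries held 3592 to 5133 CPM of endothelial and stromal markers, against 378 to 768 in the others. Replicates of 1 group fell on both sides: Hes1 was at 0.820 and 27.3 CPM in Control MPP, and Id3 at 48.0 and 3.32 in double mutant HSC. Tcf4 and Tcf12 overlapped between the 2 sets of libraries, at 152 to 199 and 83.5 to 208 CPM for Tcf4 and at 65.1 to 82.4 and 49.3 to 84.3 for Tcf12.

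**Figure D5:**
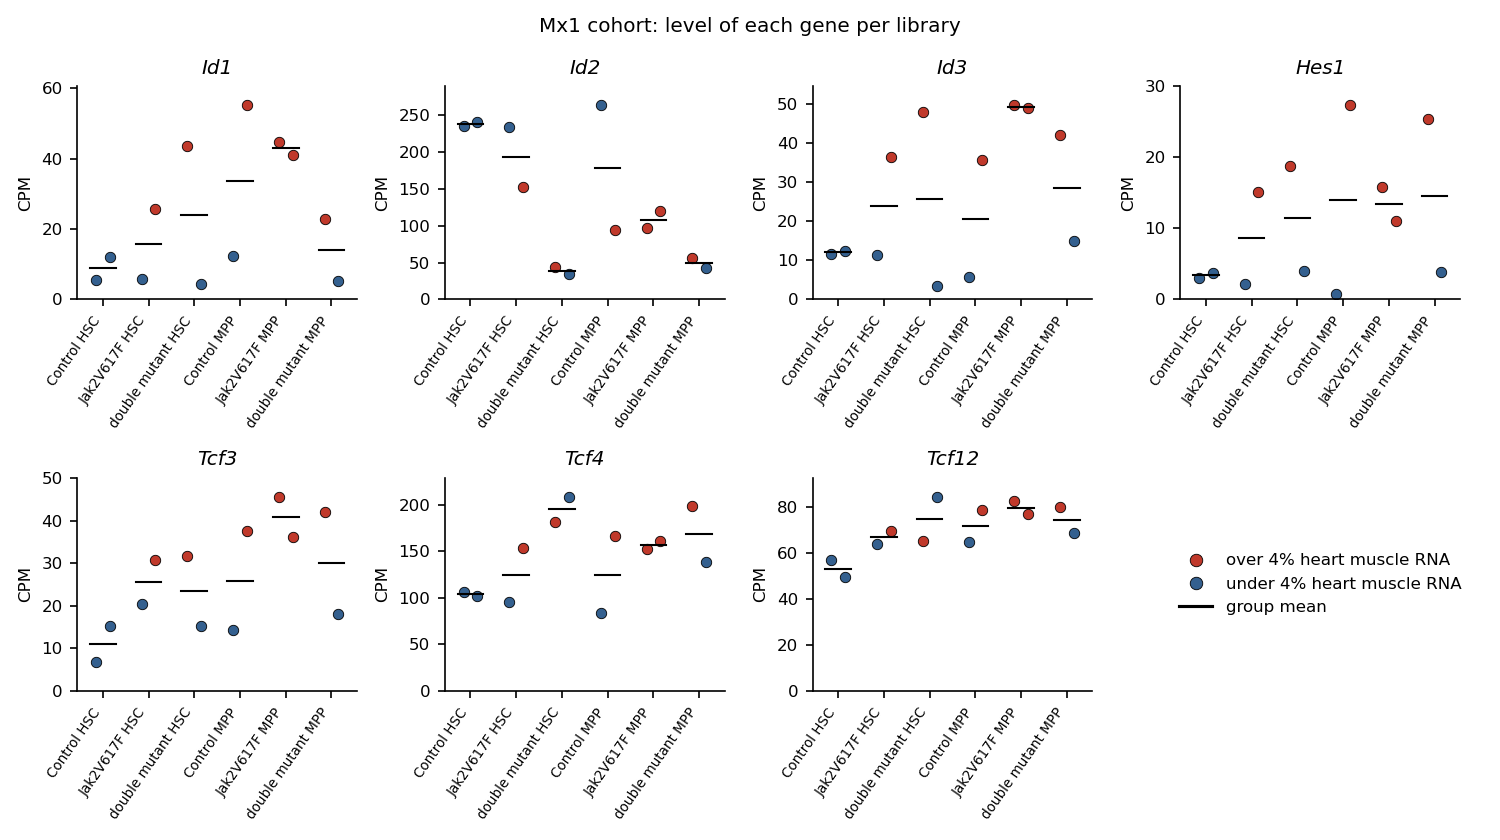
CPM of each gene (one panel each, linear axis from 0) in the 12 Mx1 libraries by group, with group means of 2; colour marks libraries over and under 4% heart muscle RNA. In the panels of Id1, Id3, Hes1 and Tcf3 all 6 libraries over 4% lie above the other 6, and in that of Id2 the 4 double mutant libraries lie lowest.

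With a term for these 6 libraries in the fit, Id2 passed between double mutant and Jak2V617F HSC (log2 -2.48, SE 0.46, adjusted p = 0.00729), where 539 of 19616 genes were called, and not in MPP (-1.34, SE 0.45, adjusted p = 0.443). Among the 6 libraries under 4%, Id2 was at 235 to 264 CPM in the 4 Control and Jak2V617F libraries and at 34.0 and 42.7 CPM in the 2 of the double mutant. Id1 was also lower there (4.32 and 5.09 against 5.49 to 12.2 CPM), and Hes1 (3.82 and 3.99 against 0.820 to 3.75), Tcf4 (139 and 208 against 83.5 to 106) and Tcf12 (68.5 and 84.3 against 49.3 to 64.8) were higher without overlap. That makes 5 of 7 members, where 26.2% of tested genes had no overlap in this split of 2 against 4 libraries. For Hes1 and Id1 the 95% Poisson intervals did meet. Those of Hes1 were 2.58 to 5.45 and 2.79 to 5.52 CPM in the double mutant, against 2.82 to 4.89 in Control HSC 2. Those of Id1 were 3.07 to 5.90 and 3.64 to 6.94 CPM, against 4.38 to 6.80 in Control HSC 1. The 2 double mutant libraries held 1828 and 3320 CPM of HSC markers and the 4 others 473 to 686.

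For the remaining Mx1 comparisons the member of smallest p was Tcf3 in Control MPP against Control HSC (log2 1.17, SE 0.70, adjusted p = 0.843) and in Jak2V617F against Control HSC (1.16, SE 0.70, adjusted p = 1.00), and Id2 in Jak2V617F against Control MPP (-0.89, SE 0.60, adjusted p = 1.00). For the difference of the Jak2V617F effect between cell types it was Hes1 (-1.28, SE 1.93, adjusted p = 1.00). The summed Id genes exceeded the summed E proteins 4.93-fold to 15.2-fold per length in Control and Jak2V617F libraries and 1.23-fold to 3.68-fold in the double mutant, where Id2 made up 34.6% to 82.8% of the Id sum. The Control and Jak2V617F values split by heart muscle RNA, at 11.6 to 15.2 under 4% and 4.93 to 6.61 over it. The double mutant stood at 1.23 and 2.29 under 4% and at 3.68 and 2.76 over it. The Vav libraries ranged from 0.872 to 3.15 on the same ratio, but the cohorts differ in driver, age, pIpC and marker content. In the pathway lists 0 genes passed in any Mx1 comparison; the 18 lymphoid targets tested had a median log2 of -3.88 between double mutant and Jak2V617F HSC (1 positive), beside -3.83 for the 10 granulocyte markers, -4.12 for the 9 B cell markers, -3.97 for the 7 T and NK cell markers tested and -0.01 for all genes. In MPP the lymphoid targets had a median of -0.26 (6 of 18 positive), beside -3.48 for granulocyte, -0.46 for B cell and -0.89 for T and NK cell markers and -0.04 for all genes. The lymphoid target and B cell lists share Cd79a, Cd79b, Pax5, Ebf1, Igll1 and Vpreb1, so their medians are not independent.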

How the data were processed

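RNA was measured in 24 libraries. The build was mm10, and the tools named, per the submitters' processing notes and with no role given, were Partek 6.6, HTSeq 0.8.0, STAR 2.0.4, featureCounts 1.4.5 and Subread. Per the file headers, the deposited tables hold a raw count, CPM and RPKM per gene. The deposited CPM and RPKM were recomputed from the counts and lengths without difference. Ensembl IDs were paired with symbols for 40254 of 41388 genes.

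Each cohort was fitted by itself in edgeR 4.0.16 under R 4.3.3 (filterByExpr with a minimum count of 10 and a minimum total of 15, TMM, robust quasi-likelihood F test, Benjamini-Hochberg adjustment over all tested genes, threshold 0.05). This left 15818 Vav and 19616 Mx1 genes, and all 7 members passed the filter in both. SE is the log2 change over the square root of F. The code was tested on simulated data. Alternatives were DESeq2 size factors, no filter, the Wald test of DESeq2 1.42.0, a replicate block, only the groups compared, each library left out and a term for heart muscle RNA over 4%. The members, lists and this 4% limit were chosen with earlier results of these data known. All 7 members are named; Mx1 fold changes are given for passing members or the one of smallest p, list genes where they pass, and Bmpr1a, Jag2, Tal1, Lyl1, Lmo2, Ldb1 and Gata2 were named after their values were seen. The 8 H3K27me3 samples were not analysed here.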

Additional observations from a re-analysis of the deposited data

Results flagged for a closer look

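Id2 had log2 changes of opposite sign with Jarid2 loss in the MPP of the 2 cohorts, neither of which passed the test. In Vav MPP its log2 change was 0.78, with all 3 Jarid2KO libraries above all 3 Control libraries, as for 9.07% of tested genes. In Mx1 MPP, where Jarid2 loss was added to Jak2V617F, it was -1.20, with both double mutant libraries below both Jak2V617F libraries. The share of tested genes free of overlap in that Mx1 split was not counted. It was picked out because all samples of one contrast lay one way and all of the other the opposite way, among 42 such checks over the 7 genes, and the difference itself was not tested. The Mx1 libraries compared differ in granulocyte markers as well (22063 and 27286 CPM in Jak2V617F MPP, 3527 and 6482 in double mutant MPP). Their HSC markers summed to 325 and 340 CPM in Jak2V617F MPP and to 856 and 1828 CPM in double mutant MPP. Heart muscle genes held 8.02% and 7.31% of counts in Jak2V617F MPP, and 8.52% and 1.13% in double mutant MPP. The part of these contents in the Id2 change was not tested.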

How the results depend on the processing

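Of 194 gene values under alternatives that kept all libraries or left out a set of them, 181 kept direction and side of the threshold. Id1 in Jarid2KO HSC passed with DESeq2 size factors (adjusted p = 0.0460), no filter (1.55e-06), DESeq2 (3.3e-05) and only the groups compared (0.00541), so 1 member passed there. Those fits called 0.569%, 2.55%, 4.38% and 2.02% of tested genes. With the replicate block the adjusted p was 0.0710 and 0 members passed, where 0.284% of tested genes did. Whether the replicate numbers pair the samples is not settled by the correlations of deviations between HSC and MPP libraries. In Vav these were -0.0091 to 0.299 for the same number and -0.199 to 0.200 for other numbers. In Mx1 they were -0.016 to 0.523 for the same number. With 2 libraries a group, the Mx1 values for other numbers are these with the sign turned. In Jarid2KO MPP, 2 members (Id1 and Tcf3) passed with no filter and with DESeq2, where 4.02% and 6.98% of tested genes passed. In double mutant HSC, 1 member (Id2) passed with DESeq2 (log2 -2.54) and with the heart muscle term (-2.48). Without the 6 libraries over 4%, an alternative added after the data were seen, the Id2 log2 change was -3.08. That comparison held 1 library against 1, with 1 residual degree of freedom that came from Control HSC, so its test is not read. With each library left out in turn, members passing ranged from 0 to 0 in Jarid2KO HSC and from 0 to 3 in Jarid2KO MPP. Signs changed for Hes1 in the Vav cell type difference with the pool as replicate block (-0.43), for Id1 between Control MPP and HSC with the replicate block (-0.032) and the pool block (-0.20), and for Hes1 in the Jak2V617F cell type difference with the heart muscle term (0.45) and the pool block (0.61). With a library left out, 18 of 246 values changed sign. The log2 ranges were, for Tcf12, -0.12 to 0.045 in Jarid2KO HSC, -0.47 to 0.067 in Jarid2KO MPP, -0.43 to 0.11 for their difference and -0.12 to 0.064 between Control MPP and HSC. For Hes1 they were -0.24 to 1.84 in Jarid2KO MPP, -0.91 to 1.24 for the difference and -2.25 to 2.65 for the Jak2V617F difference. For Id1 they were -1.64 to 0.055 for the Jarid2 difference and -1.06 to 0.64 between Control MPP and HSC, for Tcf3 -0.26 to 0.23 there, and for Id2 -1.46 to 0.16 in Jak2V617F against Control MPP. The cause of these changes was not tested. All-gene counts moved too. Jarid2KO HSC called 90 genes, against 649 by DESeq2, 828 with no filter, 45 with the replicate block, 293 with only the groups compared and 14 to 47 with a library left out; for Jarid2KO MPP these were 150, 1121, 1306, 106, 19 and 34 to 1512, and for Control MPP against HSC 185, 461, 451, 125, 395 and 61 to 102. The difference of the Jarid2 effects went from 0 to 74 genes with no filter, and double mutant MPP from 0 to 116 with the heart muscle term. Counts of 3 to 57 limit Hes1, and 7 to 140 limit Id3, in Vav.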
